A study of Mus musculus with 3 samples.

Results

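Collagen genes were read in 3 epithelial cell populations of C57BL/6 mice. The members were all genes whose symbol consists of Col, a type number, the letter a and a chain number, which gave 43 of the 22609 symbols in the table. Cortical thymic epithelial cells (cTEC) and medullary thymic epithelial cells (mTEC) came from thymi pooled over 14 mice, 7 days old, and were sorted as CD45-negative, EpCAM-positive cells that carried Ly51 (cTEC) or bound the lectin UEA1 (mTEC). Skin epithelial cells (skinEC) were sorted as EpCAM-positive, CD11c-negative epidermal cells from the trunk and dorsum of 7 pooled newborn mice. The animals of all groups shared 1 strain, and no treatment or genetic change is given. Each population was 1 RNA-sequencing library from pooled animals, and the thymic and skin mice differed in age as well as in tissue, so that age and tissue cannot be told apart.

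Collagens are secreted or membrane-bound proteins built from chains with long runs of glycine-containing repeats, and the chains wind into helical trimers. They are sorted by the structure they build. Fibrillar collagens make the fibrils of connective tissue, collagen IV makes the sheet of basement membranes on which epithelia rest, and collagens XVII and VII tie the basal epidermal cell to that sheet and to the dermis beneath. Basal keratinocytes are a known source of collagens XVII, VII and IV. Thymic epithelium forms an open meshwork rather than a covering sheet, and mTEC are known to transcribe many genes that are otherwise restricted to other tissues.

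Expression was given in RPKM (read number divided by the length of the gene model and by the mapped reads), a scale on which levels of different genes can be compared. The estimated depth was similar in the libraries, with about 56700000 mapped reads in cTEC, 55500000 in mTEC and 55900000 in skinEC. On collagen transcripts, 3 reads then equal 0.00460 to 0.0185 RPKM, depending on their length. With 1 library per population there was no replicate and no test across samples. Genes that reached 1 RPKM in any library were compared, and a gene counted as higher when log2(RPKM + 1) differed by 2 or more, here called 4-fold. This scale understates the differences of low genes. In bulk libraries, fewer cells of a type and less RNA per cell cannot be told apart. As a check of the labels, 5 of 6 cortical markers were at least 4-fold higher in cTEC than in mTEC, 6 of 6 medullary markers differed as much toward mTEC, and keratinocyte markers were at least 4-fold higher in skinEC for 6 of 7 against cTEC (not Trp63) and 6 of 7 against mTEC (not Lor).

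Collagen IV genes led in both thymic libraries and anchoring collagens in skinEC. In cTEC the highest were the collagen IV genes Col4a1 (233.5 RPKM) and Col4a2 (206.5 RPKM), followed by the multiplexin gene Col18a1 (180.7 RPKM), and these made up 62.4% of the summed collagen level. In skinEC the anchoring collagens Col17a1 (1011 RPKM) and Col7a1 (183 RPKM) led, and Col17a1 alone made up 54.7% of the sum and was the 61st most abundant gene of that library. In mTEC the sum was spread more widely, with Col4a1 (87.5 RPKM) and Col4a2 (48.8 RPKM) first and the 5 highest genes at 40.5%, against 76.3% in cTEC and 85.1% in skinEC. The summed collagen level was 994 RPKM in cTEC, against 611 in mTEC and 1848 in skinEC, which is 0.215%, 0.129% and 0.311% of the summed RPKM of all genes.

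**Figure D1:**
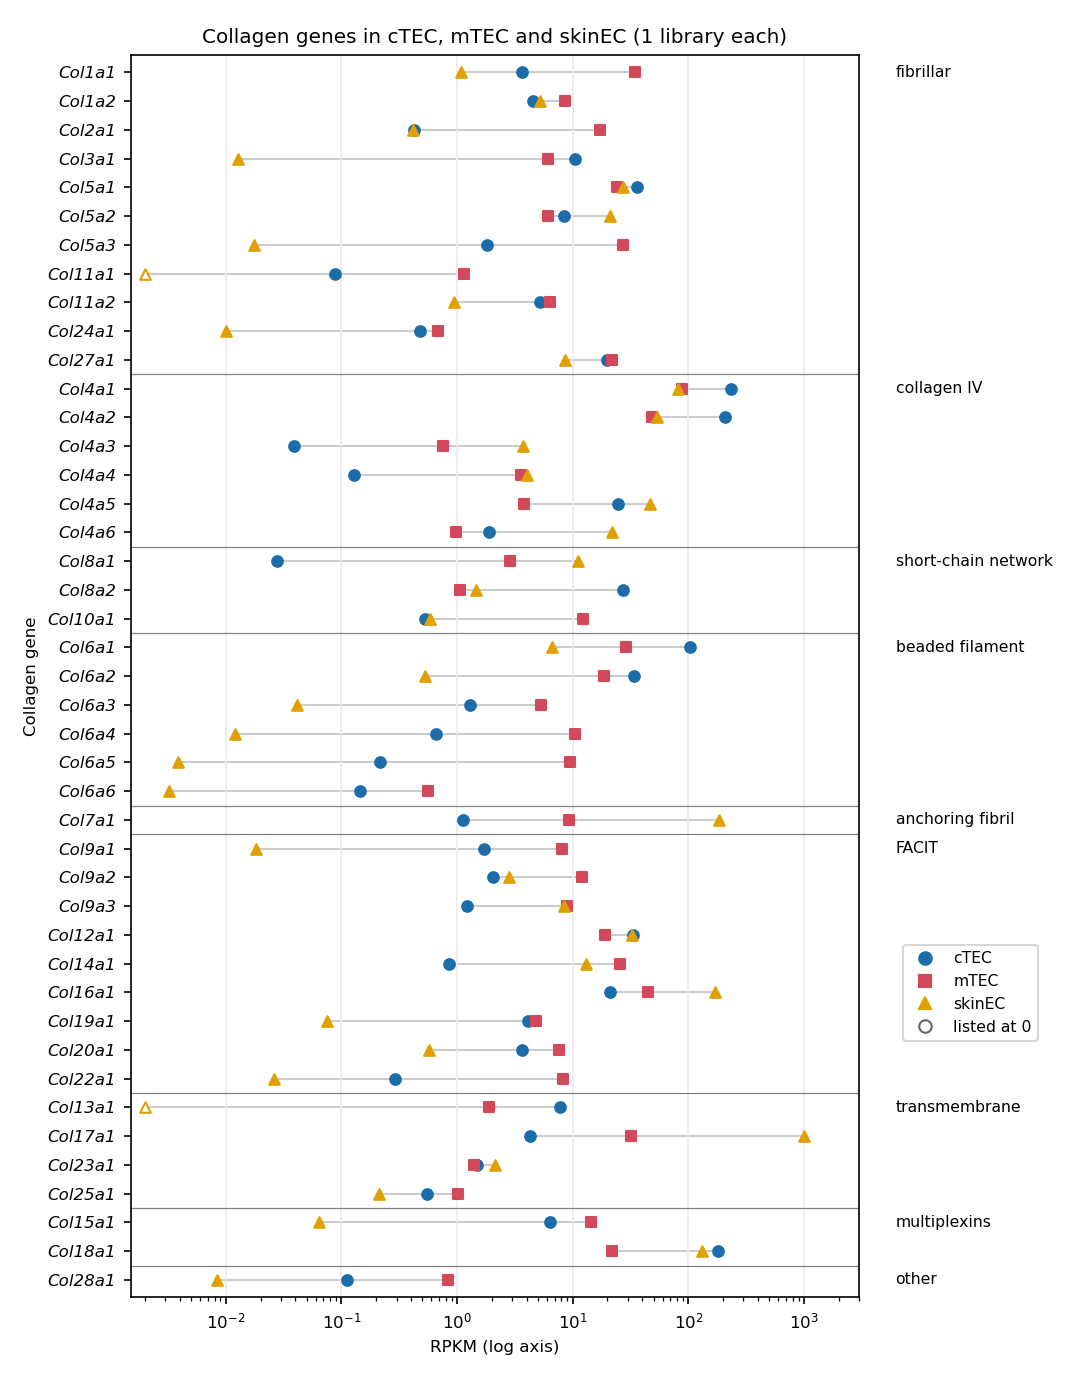
RPKM of the 43 collagen genes (rows, grouped by structural class) on a log axis in the cTEC, mTEC and skinEC libraries, 1 library each; each point is 1 library, and open symbols at the left edge are genes listed at 0. Col17a1 in skinEC lies furthest right at 1011 RPKM, and many skinEC points lie below 0.1 RPKM in the fibrillar and beaded filament classes.

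At 1 RPKM or more there were 38 of 43 members in mTEC, while cTEC had 29 and skinEC 23. Among all symbols 72.4%, 55.7% and 53.5% reached this level, and the collagens stood at 88.4%, 67.4% and 53.5%, in the same order. At 10 RPKM or more there were 18 members in mTEC, while cTEC had 12 and skinEC 13 (41.9%, 27.9% and 30.2%, beside 36.5%, 34.2% and 33.9% of all symbols). At 100 RPKM or more there were 4 collagen genes in cTEC, 0 in mTEC and 4 in skinEC, beside 3.41%, 3.08% and 4.41% of all symbols. Of the 43, 40 passed the filter, and Col6a6, Col24a1 and Col28a1 were below 1 RPKM in every library. Of the 40, 20 had their highest value in mTEC, while 10 peaked in cTEC and 10 in skinEC, and over all genes that passed the filter mTEC held the highest value of 40.1%, cTEC of 26.1% and skinEC of 33.9%.

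Between the thymic libraries, cortex was set against medulla. Of the 40 members, 4 were at least 4-fold higher in cTEC, where 2.69% of all genes were, and 13 were at least 4-fold higher in mTEC, where 15.2% of all genes were. The 4 were Col4a2, Col4a5, Col8a2 and Col18a1. The 13 were Col1a1, Col2a1, Col4a4, Col5a3, Col6a4, Col6a5, Col7a1, Col9a2, Col9a3, Col10a1, Col14a1, Col17a1 and Col22a1. The median log2 ratio of cTEC over mTEC was -0.84 over the 40 members and -0.08 over all genes tested.

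The comparisons with skinEC set each thymic epithelium against an epithelium outside the thymus. In cTEC 7 of 40 members were at least 4-fold higher than in skinEC (6.30% of all genes), namely Col3a1, Col6a1, Col6a2, Col8a2, Col13a1, Col15a1 and Col19a1. In skinEC 9 were at least 4-fold higher than in cTEC (5.82% of all genes), namely Col4a3, Col4a4, Col4a6, Col7a1, Col8a1, Col9a3, Col14a1, Col16a1 and Col17a1. In mTEC 14 were at least 4-fold higher than in skinEC (16.8% of all genes) and in skinEC 5 were at least 4-fold higher than in mTEC (4.20% of all genes). The 14 were Col1a1, Col2a1, Col3a1, Col5a3, Col6a2, Col6a3, Col6a4, Col6a5, Col9a1, Col10a1, Col15a1, Col19a1, Col20a1 and Col22a1, and the 5 were Col4a5, Col4a6, Col7a1, Col17a1 and Col18a1. The median log2 ratio over the members was 0.34 for cTEC over skinEC and 1.01 for mTEC over skinEC, beside 0 and 0.16 over all genes.

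Both comparisons with skinEC share the skinEC library, whose summed RPKM was larger (595006, against 462762 in cTEC and 474028 in mTEC). With every library scaled to the same sum, the median of all genes moved to 0.16 for cTEC over skinEC and to 0.45 for mTEC over skinEC. The members at least 4-fold apart then numbered 8 higher in cTEC and 7 higher in skinEC, and 17 higher in mTEC and 5 higher in skinEC. Over the 16982 genes that then passed the filter, 1303 were higher in cTEC (7.67%) and 766 higher in skinEC (4.51%), from 1062 and 981. Between mTEC and skinEC the numbers became 3182 higher in mTEC (18.7%) and 494 higher in skinEC (2.91%), from 2834 and 708. Col4a4 and Col9a3 then fell short of 4-fold between cTEC and skinEC, and Col4a2 passed it.

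Promoter sequences are shown for 7 members that set the populations apart, as the stretch before the annotated start, read 5′ to 3′ on the strand of the gene from RefSeq (GRCm38.p6, a later build than the mm9 named for the deposited values). On the plus strand lie Col7a1 (chr9:108953336-108953585), Col4a5 (chrX:141475169-141475369), Col8a2 (chr4:126286544-126286793) and Col10a1 (chr10:34389731-34389980). On the minus strand lie Col17a1 (chr19:47692043-47692292), Col4a6 (chrX:141474096-141474326) and Col6a1 (chr10:76726045-76726294). Col17a1 and Col7a1 are the highest collagen genes of skinEC. Col4a5 and Col4a6 are neighbours on the X chromosome that are both lowest in mTEC. Col8a2 and Col6a1 have their own highest value in cTEC, and Col10a1 has its own in mTEC, without being the highest collagen genes there. Capitals mark matches on either strand to 4 motifs. The TATA box was searched as TATAAA and the CCAAT box by the letters of its name. The GC box was searched as GGGCGG, and the binding site of the factor AP-1 was searched as TGANTCA. The motifs were searched independently of each other, and matches may overlap.
Col17a1: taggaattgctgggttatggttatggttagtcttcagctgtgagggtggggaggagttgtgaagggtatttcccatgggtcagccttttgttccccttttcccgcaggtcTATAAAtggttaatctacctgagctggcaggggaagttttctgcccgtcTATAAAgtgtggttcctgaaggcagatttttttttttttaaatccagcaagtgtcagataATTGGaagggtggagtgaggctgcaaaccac
Col7a1: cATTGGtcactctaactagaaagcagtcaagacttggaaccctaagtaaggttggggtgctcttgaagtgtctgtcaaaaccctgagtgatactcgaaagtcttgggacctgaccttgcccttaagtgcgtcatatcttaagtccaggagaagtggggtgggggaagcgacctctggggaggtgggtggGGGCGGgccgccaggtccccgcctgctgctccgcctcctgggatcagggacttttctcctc
Col4a5: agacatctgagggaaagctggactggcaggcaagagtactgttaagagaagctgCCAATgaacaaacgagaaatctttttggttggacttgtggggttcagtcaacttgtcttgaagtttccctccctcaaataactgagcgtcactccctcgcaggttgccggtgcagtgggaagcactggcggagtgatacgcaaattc
Col4a6: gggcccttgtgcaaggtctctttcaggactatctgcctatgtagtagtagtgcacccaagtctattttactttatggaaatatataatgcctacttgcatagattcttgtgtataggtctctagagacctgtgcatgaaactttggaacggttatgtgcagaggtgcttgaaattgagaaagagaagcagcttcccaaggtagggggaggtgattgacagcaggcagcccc
Col8a2: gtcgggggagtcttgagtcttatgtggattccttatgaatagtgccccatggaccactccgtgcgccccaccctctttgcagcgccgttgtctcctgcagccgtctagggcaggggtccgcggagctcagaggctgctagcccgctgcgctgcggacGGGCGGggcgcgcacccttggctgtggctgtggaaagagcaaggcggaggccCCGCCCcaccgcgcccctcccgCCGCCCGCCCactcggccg
Col6a1: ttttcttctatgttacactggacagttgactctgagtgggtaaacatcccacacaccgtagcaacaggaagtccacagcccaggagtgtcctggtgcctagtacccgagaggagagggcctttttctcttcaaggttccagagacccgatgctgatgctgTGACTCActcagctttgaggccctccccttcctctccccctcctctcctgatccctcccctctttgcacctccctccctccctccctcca
Col10a1: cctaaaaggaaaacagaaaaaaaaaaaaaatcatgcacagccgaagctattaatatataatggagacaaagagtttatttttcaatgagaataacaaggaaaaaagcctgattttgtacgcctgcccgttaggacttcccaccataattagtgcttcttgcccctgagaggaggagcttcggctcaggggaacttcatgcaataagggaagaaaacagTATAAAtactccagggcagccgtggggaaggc

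The windows differed in composition. The Col17a1 window held 2 TATA boxes, 1 CCAAT box and 2 CpG dinucleotides, and the Col10a1 window held 1 TATA box and 5 CpG. The Col8a2 window held 4 GC boxes and 24 CpG, the Col7a1 window 1 GC box, 1 CCAAT box and 7 CpG, and the Col6a1 window 1 AP-1 site. The Col4a6 window held none of the 4 motifs. The windows of Col4a5 (201 bases) and Col4a6 (231 bases) are shorter than the others, because bases inside the annotated gene were left out. The survey of all members kept such bases. It covered the 35 members with a sequence in the RefSeq table, in the 250 bases before the most upstream start given there. A GC box was found in 21 (60.0%), against 42.7% of 17491 protein-coding genes. A CCAAT box was found in 12 (34.3%, against 36.5%), a TATA box in 5 (14.3%, against 12.4%) and an AP-1 site in 1 (2.86%, against 6.18%). Over genes of every kind in the table, rather than protein-coding genes, the share with a GC box was 33.0%. These matches describe letters in the window only.

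Collagen IV, the network of basement membranes, was the largest class of cTEC. Its 6 genes summed to 467 RPKM in cTEC, against 145 in mTEC and 211 in skinEC, which is 46.9%, 23.8% and 11.4% of the collagen sum. Col4a1, which with Col4a2 makes the chains found in nearly every basement membrane, was at 233.5 RPKM in cTEC, against 87.5 in mTEC and 80.8 in skinEC. Col4a2 was at 206.5, 48.8 and 53.4 RPKM in the same order. Both stood highest in cTEC, while mTEC and skinEC lay close to each other, with log2 ratios of mTEC over skinEC of 0.11 for Col4a1 and -0.13 for Col4a2. The level of Col4a1 over that of Col4a2 came to 1.13 in cTEC, to 1.79 in mTEC and to 1.51 in skinEC.

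The other collagen IV chains, which build the networks of particular basement membranes such as that of the kidney glomerulus, were arranged differently. Col4a5 was at 24.7 RPKM in cTEC, against 3.79 in mTEC and 46.7 in skinEC. Col4a6, its partner in the basement membrane of skin, was at 1.88, 0.971 and 21.9 RPKM. Both were lowest in mTEC and highest in skinEC, and the log2 ratio of mTEC over skinEC was -3.32 for Col4a5 and -3.54 for Col4a6. In cTEC the pair separated, with Col4a5 at 13.1 times the level of Col4a6, against 3.91 times in mTEC and 2.13 times in skinEC. Col4a3 was at 0.0390 RPKM in cTEC, against 0.756 in mTEC and 3.70 in skinEC, and Col4a4 at 0.129, 3.59 and 4.06 RPKM. cTEC was lowest for both of these genes. The plot of chains of the same type shows Col4a1 and Col4a2 falling from cTEC to mTEC, where Col4a3 and Col4a4 rise.

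**Figure D2:**
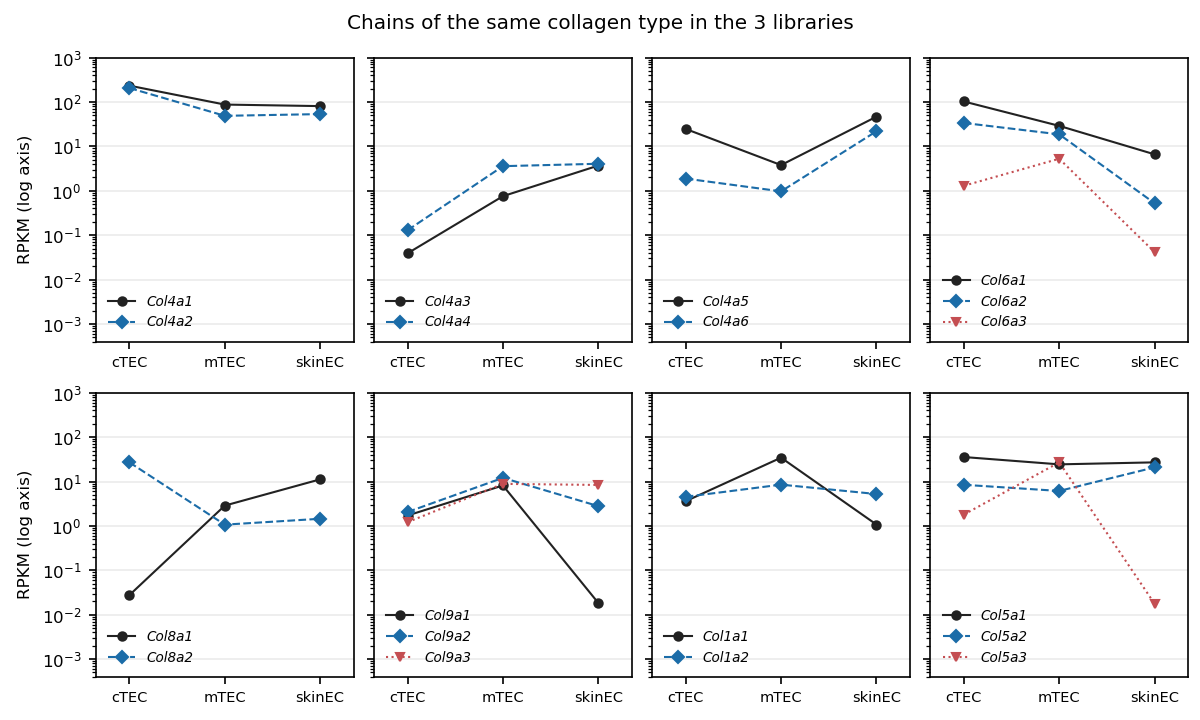
RPKM (log axis) of the chains of 6 collagen types in the cTEC, mTEC and skinEC libraries, 1 value per library; each panel holds chains of 1 type (collagen IV has 3 panels), and lines join the values of 1 gene. Col4a1 and Col4a2 run together with their highest values in cTEC, and Col4a5 and Col4a6 are both lowest in mTEC. Col8a1 and Col8a2 take opposite courses from cTEC to mTEC.

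The anchoring collagens were highest in skinEC. Col17a1 encodes the transmembrane collagen of hemidesmosomes, the junctions that hold basal keratinocytes to the basement membrane. It was at 4.25 RPKM in cTEC, against 31.8 in mTEC and 1011 in skinEC, with log2 ratios of -7.59 for cTEC over skinEC and -4.95 for mTEC over skinEC. Col7a1, the gene of the anchoring fibrils that reach from the basement membrane into the dermis, was at 1.13, 9.36 and 183 RPKM, with log2 ratios of -6.43 and -4.15. The libraries stood in the same order for both genes, and both were also at least 4-fold higher in mTEC than in cTEC, with log2 ratios of cTEC over mTEC of -2.64 for Col17a1 and -2.28 for Col7a1. The genes of partner proteins of the same junction were read beside them. Of 7 partner genes, 0 were at least 4-fold different between cTEC and mTEC, beside 2.69% of all genes higher in cTEC and 15.2% higher in mTEC. Their log2 ratios of cTEC over mTEC ran from -0.35 (Itga6) to 1.65 (Lamb3). The median of 1.06 lay toward cTEC, unlike the ratios of Col17a1 and Col7a1. Between mTEC and skinEC, 2 of the 7, Lama3 and Lamb3, were at least 4-fold higher in skinEC, beside 4.20% of all genes. The integrin gene Itgb4 was at 56.9 RPKM in cTEC, against 62.6 in mTEC and 216 in skinEC, and Lamb3, a chain of the laminin that binds it, was at 70.9, 21.9 and 257 RPKM. Lama3, another chain of that laminin, was at 32.5, 12.1 and 63.0 RPKM. With libraries scaled to the same sum, Lama3 fell short of 4-fold between mTEC and skinEC.

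The other transmembrane collagens were low. Col13a1, a collagen of cell adhesions and the neuromuscular junction, was at 7.76 RPKM in cTEC against 1.91 in mTEC, and is listed at 0 in skinEC. Col23a1 was between 1.40 and 2.13 RPKM in all 3 libraries. Col25a1, whose product is known from amyloid plaques of the brain, was at 0.555 RPKM in cTEC, against 1.02 in mTEC and 0.213 in skinEC. Neither Col23a1 nor Col25a1 was 4-fold apart in any comparison.

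The multiplexins, basement membrane collagens that carry sugar chains, were divided. Col18a1, whose product releases the fragment endostatin, was at 181 RPKM in cTEC, against 21.9 in mTEC and 131 in skinEC. mTEC stood apart from both others, with log2 ratios of 2.99 for cTEC over mTEC and -2.52 for mTEC over skinEC. Col15a1 was at 6.41 RPKM in cTEC, against 14.5 in mTEC and 0.0639 in skinEC, which is lowest in skinEC, with a log2 ratio of mTEC over skinEC of 3.86.

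**Figure D3:**
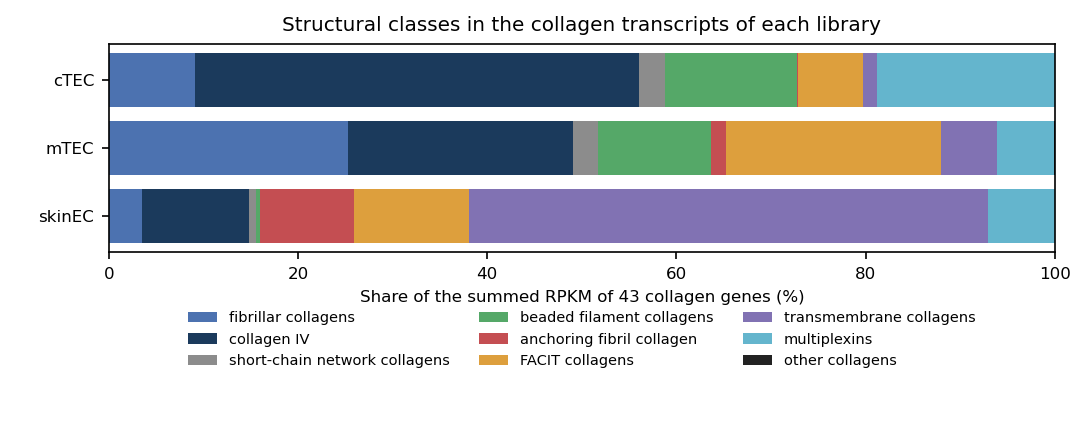
Share of the summed RPKM of the 43 collagen genes (x axis, percent) taken by each structural class in the cTEC, mTEC and skinEC libraries, 1 stacked bar per library. Collagen IV takes 46.9% in cTEC and transmembrane collagens 54.8% in skinEC, while fibrillar collagens (25.2%), collagen IV (23.8%) and FACIT collagens (22.8%) take similar shares in mTEC.

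Collagen VI, which makes beaded filaments around cells, had a higher summed level in the thymic libraries than in skinEC. Its 6 genes summed to 139 RPKM in cTEC, against 73.4 in mTEC and 7.20 in skinEC. Col6a1 was at 102.7 RPKM in cTEC, against 29.0 in mTEC and 6.62 in skinEC, and Col6a2 at 33.7, 18.7 and 0.523 RPKM. The log2 ratio of cTEC over skinEC was 3.77 for Col6a1 and 4.51 for Col6a2. Col6a3, the long chain that joins these chains in the classical trimer, was at 1.30 RPKM in cTEC, against 5.27 in mTEC and 0.0415 in skinEC. It was therefore the lowest of the 3 chains in every library, and Col6a1 exceeded it 79.1 times in cTEC and 5.50 times in mTEC. The alternative chains, which can take the place of Col6a3, lay highest in mTEC. Col6a4 was at 0.653, 10.4 and 0.0120 RPKM in cTEC, mTEC and skinEC, and Col6a5 at 0.217, 9.55 and 0.00385 RPKM, the last about 2 reads. Col6a6 was below 1 RPKM throughout, at 0.144, 0.556 and 0.00324 RPKM.

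The short-chain collagens exchanged members between the libraries. Col8a2, a chain of the hexagonal networks known from the cornea and vessel walls, was at 27.1 RPKM in cTEC, against 1.07 in mTEC and 1.45 in skinEC. Its log2 ratio was 3.76 for cTEC over mTEC, the largest toward cTEC of the 40 members, and 3.52 for cTEC over skinEC. Its partner chain Col8a1 was at 0.0277 RPKM in cTEC, which is about 8 reads, 2.87 RPKM in mTEC and 11.2 RPKM in skinEC. Col8a2 was the only chain of this type above 1 RPKM in cTEC, and Col8a1 exceeded it 7.73 times in skinEC. Col10a1, a gene of hypertrophic cartilage, was at 0.531, 12.3 and 0.589 RPKM in cTEC, mTEC and skinEC, with log2 ratios of -3.12 for cTEC over mTEC and 3.06 for mTEC over skinEC.

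Fibrillar collagens took the largest share in mTEC, at 25.2% of the collagen sum, against 9.10% in cTEC and 3.47% in skinEC. Col1a1, a chain of the main collagen of skin, tendon and bone, was at 3.61 RPKM in cTEC, against 34.5 in mTEC and 1.07 in skinEC. Col1a2, the partner chain of the same trimer, was at 4.54, 8.52 and 5.23 RPKM and was not 4-fold apart in any comparison. The level of Col1a1 over that of Col1a2 came to 0.796 in cTEC, to 4.05 in mTEC and to 0.205 in skinEC. Col3a1, which accompanies collagen I in soft tissues, had another order, with 10.4 RPKM in cTEC, against 6.07 in mTEC and 0.0129 in skinEC, the last about 4 reads.

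Among the regulatory fibrillar collagens, which set the width of collagen I fibrils, Col5a1 was at 35.7 RPKM in cTEC, against 24.4 in mTEC and 27.1 in skinEC, a narrow range. Col5a2 was at 8.46, 6.14 and 20.9 RPKM and also stayed within 4-fold. Col5a3 was at 1.803 RPKM in cTEC, against 27.1 in mTEC and 0.0176 in skinEC, with log2 ratios of -3.33 for cTEC over mTEC and 4.79 for mTEC over skinEC, the largest toward mTEC of the members in the latter comparison. Col27a1, a fibrillar collagen of cartilage, was at 19.8, 22.1 and 8.55 RPKM. Col11a2 was at 5.24, 6.36 and 0.939 RPKM, and Col11a1 at 0.0874 and 1.15 RPKM in the thymic libraries and listed at 0 in skinEC. Col24a1 was below 1 RPKM in every library, with its highest value of 0.687 RPKM in mTEC.

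Several collagen genes known from cartilage had their highest value in mTEC. Col2a1, the main collagen gene of cartilage, was at 0.428 RPKM in cTEC, against 17.2 in mTEC and 0.416 in skinEC, with log2 ratios of -3.67 for cTEC over mTEC and 3.69 for mTEC over skinEC. The collagen IX genes, whose products coat cartilage fibrils, did not follow it evenly. Col9a1 was at 1.72, 8.16 and 0.0184 RPKM, Col9a2 at 2.06, 12.1 and 2.80 RPKM, and Col9a3 at 1.22, 8.87 and 8.38 RPKM. In mTEC the 3 chains lay within 8.16 to 12.1 RPKM, whereas in skinEC Col9a3 was present with almost no Col9a1. Cartilage markers other than collagens moved with these genes. Of these 9, 5 (Acan, Matn1, Lect1, Comp and Ucma) reached 4-fold toward mTEC against cTEC, beside 15.2% of all genes. The summed level of the 9 was 29.8 RPKM in cTEC, against 167 in mTEC and 39.5 in skinEC. Ucma was at 62.1 RPKM in mTEC against 1.02 in cTEC, the aggrecan gene Acan at 4.22 against 0.00961, and Sox9, which many epithelia also transcribe, at 35.0 against 21.1, with 39.0 RPKM in skinEC. In skinEC 5 of the 9 are listed at 0, Acan, Matn1, Matn3, Lect1 and Ucma, and Matn3 is listed at 0 in cTEC as well. The part of cartilage markers in the mTEC values was not tested.

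The remaining collagens of the FACIT class, which attach to the surface of fibrils, were spread over the libraries. Col16a1, found near the junction of epidermis and dermis, was at 21.2 RPKM in cTEC, against 44.7 in mTEC and 169 in skinEC, with log2 ratios of -2.94 for cTEC over skinEC and -1.89 for mTEC over skinEC. Col14a1 was at 0.858, 25.7 and 13.1 RPKM, and its log2 ratio of -3.84 for cTEC over mTEC was the largest toward mTEC of the members in that comparison. Col12a1, which shares the class with Col14a1, was at 33.2, 18.9 and 32.6 RPKM and within 4-fold throughout. Col22a1, known from the junction of muscle and tendon, was at 0.291, 8.31 and 0.0263 RPKM. Col19a1 had similar levels in the thymic libraries and a low level in skinEC (4.07, 4.86 and 0.0747 RPKM). Col20a1 was also lowest in skinEC, and was higher in mTEC than in cTEC by less than 4-fold (3.64, 7.65 and 0.577 RPKM). Col28a1, a collagen of peripheral nerve outside these classes, was at 0.113, 0.840 and 0.00846 RPKM.

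Collagen genes that neighbour each other in the genome mostly peaked in the same library. RefSeq places 8 pairs of members next to each other among protein-coding genes, and 7 of them had their highest value in 1 common library, beside 46.8% of 17707 neighbouring pairs over all genes. The pairs were Col4a1 with Col4a2 and Col6a1 with Col6a2 (highest in cTEC), Col4a3 with Col4a4 and Col4a5 with Col4a6 (highest in skinEC), and Col6a4 with Col6a5, Col6a5 with Col6a6 and Col9a1 with Col19a1 (highest in mTEC). The exception was Col3a1 with Col5a2. The pair lay close in the thymic libraries, with Col3a1 over Col5a2 at 1.23 in cTEC and 0.988 in mTEC, and separated in skinEC, where Col5a2 was at 20.9 RPKM and Col3a1 at 0.0129 RPKM. Col6a6 is counted here although it is below 1 RPKM.

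Of 15 genes for prolyl and lysyl modification of collagen chains, 15 reached 1 RPKM in cTEC, 14 in mTEC and 13 in skinEC. Between the thymic libraries 3 were at least 4-fold higher in cTEC than in mTEC and 1 was higher in mTEC. Beside these and the following list counts, 2.69% of all genes were higher in cTEC than in mTEC and 15.2% higher in mTEC. P4ha3, a catalytic subunit of prolyl 4-hydroxylase, which makes the hydroxyproline that stabilises the helix, was at 116 RPKM in cTEC, against 5.28 in mTEC and 0.235 in skinEC, with log2 ratios of 4.22 for cTEC over mTEC and 6.56 for cTEC over skinEC. The further subunits P4ha1 (26.9, 15.8 and 17.9 RPKM) and P4ha2 (3.35, 17.5 and 9.22 RPKM) had other orders. P4hb, the shared subunit, was the highest of the list in cTEC and skinEC, at 257 RPKM in cTEC, against 237 in mTEC and 305 in skinEC. The lysyl hydroxylase gene Plod2 was at 19.7, 5.52 and 2.23 RPKM, Leprel4 was at 23.9, 4.58 and 21.1 RPKM, and Glt25d2, a collagen galactosyltransferase gene, was at 5.71 RPKM in cTEC against 0.444 in mTEC, and is listed at 0 in skinEC. The list median log2 ratio was 0.62 for cTEC over mTEC, -0.25 for cTEC over skinEC and -0.17 for mTEC over skinEC. Both medians against skinEC turned positive, at 0.11 and 0.14, with libraries scaled to the same sum.

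Of 8 genes for folding and export that passed the filter, 1 was at least 4-fold apart. Serpinh1, the collagen-specific chaperone of the endoplasmic reticulum, was at 228 RPKM in cTEC, against 45.7 in mTEC and 154 in skinEC, a log2 ratio of 2.30 for cTEC over mTEC. The general chaperone gene Hspa5 was the highest of the list in cTEC and mTEC, at 346, 753 and 283 RPKM, and Pdia3 the highest in skinEC, at 290.0 RPKM. The export receptor gene Mia3, which most cells use, is listed at 0 in all 3 libraries, so that this 0 cannot be read as absence. Among 7 genes for trimming the propeptides that passed the filter, the N-propeptidase genes Adamts2 and Adamts14 had opposite orders. Adamts2 was at 60.5 RPKM in cTEC, against 6.01 in mTEC and 0.378 in skinEC, while Adamts14 was at 0.603, 4.54 and 36.4 RPKM. The related Adamts3 followed neither and was at 0.989, 1.41 and 0.0295 RPKM. The log2 ratios of cTEC over skinEC were 5.48 for Adamts2 and -4.54 for Adamts14. The C-propeptidase gene Bmp1 was present in all 3, at 47.8, 25.7 and 104 RPKM, and its enhancer gene Pcolce was at 6.33, 10.05 and 0.314 RPKM. Pcolce2, a related gene, was at 3.60 and 12.1 RPKM in the thymic libraries and is listed at 0 in skinEC.

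Crosslinking genes other than Pxdn had their highest level in mTEC. Of 7 genes, 2 reached 4-fold toward mTEC against cTEC and 5 against skinEC, beside 15.2% and 16.8% of all genes. The list median log2 ratio was -1.36 for cTEC over mTEC and 2.50 for mTEC over skinEC. The lysyl oxidase family gene Loxl2 was at 4.58 RPKM in cTEC, against 19.5 in mTEC and 0.294 in skinEC, and the transglutaminase gene Tgm2 at 4.61, 32.0 and 1.24 RPKM. Loxl4 was at 0.627, 6.83 and 0.0593 RPKM. Pxdn, the peroxidase that crosslinks collagen IV, was at 34.9, 19.9 and 25.1 RPKM.

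**Figure D4:**
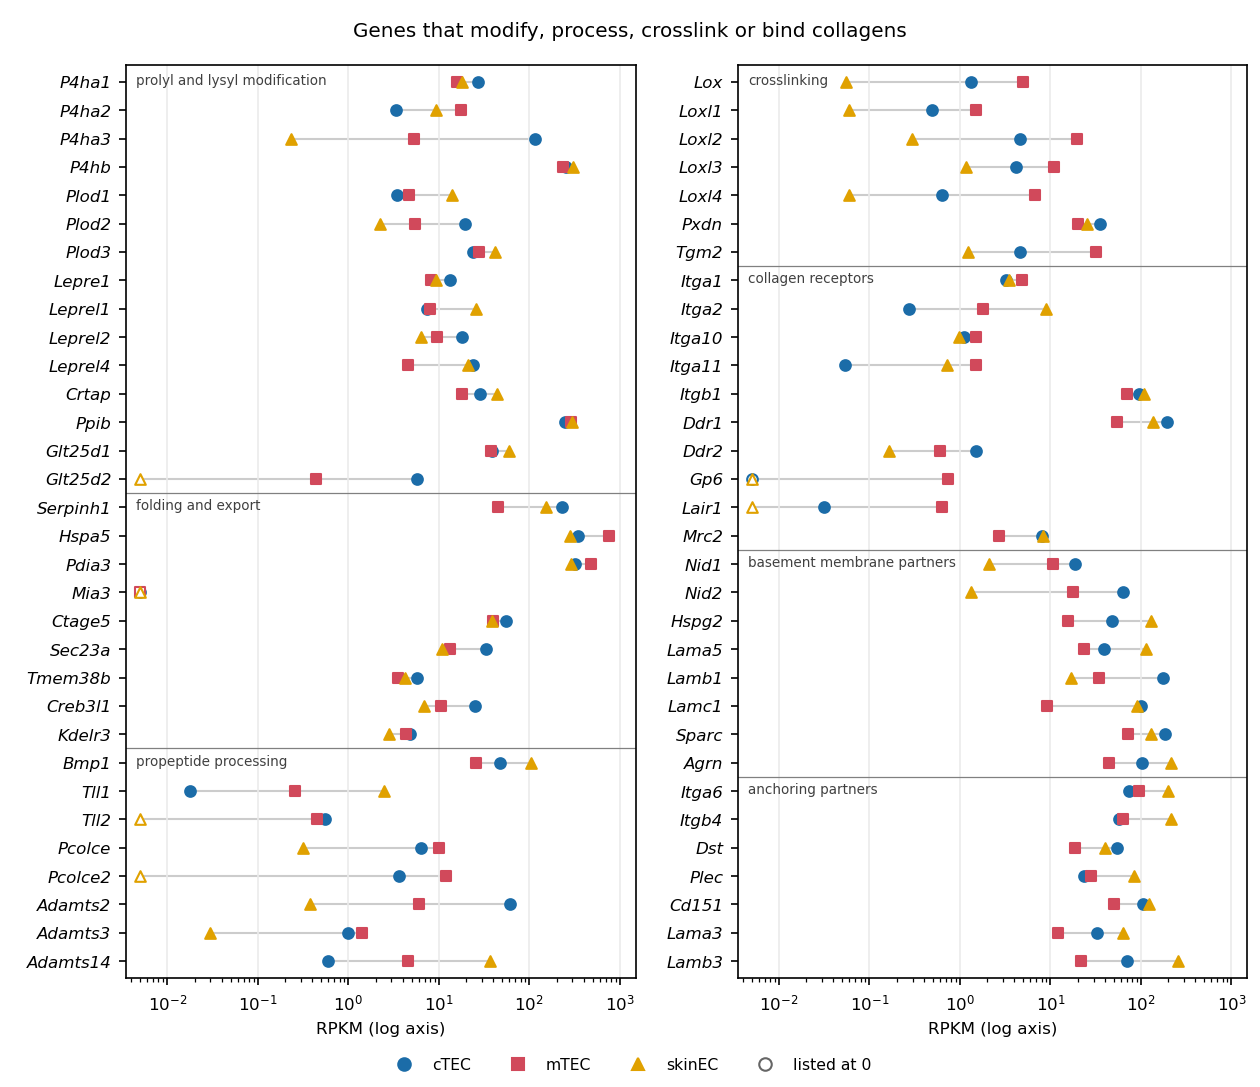
RPKM (log axis) in the cTEC, mTEC and skinEC libraries of genes that modify, fold, process, crosslink or bind collagens, grouped by role; each point is 1 library and open symbols at the left edge are genes listed at 0. P4ha3 (116 RPKM) and Adamts2 (60.5 RPKM) have their highest value in cTEC and Adamts14 (36.4 RPKM) in skinEC, while the lysyl oxidase family genes have theirs in mTEC.

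Few receptor genes for collagen were 4-fold apart. Of 8 receptor genes that passed the filter, 0 were 4-fold apart between cTEC and mTEC or between mTEC and skinEC. In the latter comparison 16.8% of all genes were higher in mTEC and 4.20% in skinEC. Against cTEC, 1 of the 8, the integrin gene Itga2, was higher in skinEC, beside 5.82% of all genes. Itga2 was at 0.272, 1.82 and 8.87 RPKM in cTEC, mTEC and skinEC. The epithelial collagen receptor gene Ddr1 was the highest of the list in cTEC and skinEC, at 193, 54.1 and 135 RPKM, and Itgb1 the highest in mTEC, at 71.0 RPKM. The list median against skinEC was -0.05 for cTEC and -0.13 for mTEC, and turned to 0.24 and 0.12 with libraries scaled to the same sum. Of 8 genes for other components of the basement membrane, 2 were at least 4-fold higher in cTEC than in mTEC, the laminin genes Lamb1 (176, 34.5 and 17.0 RPKM) and Lamc1 (99.2, 9.23 and 90.1 RPKM). The linker gene Nid2 was at 62.6, 17.9 and 1.32 RPKM, with a log2 ratio of cTEC over skinEC of 4.77, and Nid1 was at 18.5, 10.7 and 2.11 RPKM, while Hspg2, the gene of the proteoglycan perlecan, was at 48.1, 15.7 and 130 RPKM. The list median was 1.46 for cTEC over mTEC, 0.34 for cTEC over skinEC and -1.52 for mTEC over skinEC. Between mTEC and skinEC, 1 gene was higher in mTEC and 4 in skinEC (16.8% and 4.20% of all genes). With libraries scaled to the same sum the numbers were 2 and 2 (18.7% and 2.91% of all genes).

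Markers of other cell types that make collagens were read beside these results. Of 12 fibroblast markers other than collagens, 10 were at 1 RPKM or more in cTEC, 9 in mTEC and 4 in skinEC, and they summed to 121, 125 and 468 RPKM, with the skinEC sum mostly from Postn (342 RPKM). Between the thymic libraries 3 were at least 4-fold higher in cTEC (Dpt, Fbln1 and Twist2) and 3 in mTEC (Pdgfrb, Thy1 and Mfap5). Dpt was at 25.3 RPKM in cTEC against 0.981 in mTEC and Twist2 at 12.1 and 0.110 RPKM, while Pdgfrb was at 1.29 and 12.8 RPKM and Mfap5 at 0.0501 and 10.6 RPKM. Pdgfra, a defining fibroblast marker, was at 0.338 RPKM in cTEC, against 0.639 in mTEC and 0.0778 in skinEC, and Dpt and Mfap5 are listed at 0 in skinEC. Fbln1 was the highest of the list in cTEC, at 40.7 RPKM, and Dcn in mTEC, at 47.4 RPKM, against 19.4 RPKM in cTEC and 27.7 RPKM in skinEC. The part of such cells in the levels of Col1a1, Col3a1 and Col6a1 was not tested.

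Pericyte and smooth muscle markers summed to 146 RPKM in cTEC, against 234 in mTEC and 93.5 in skinEC, with 5, 7 and 2 of 8 at 1 RPKM or more. Rgs5 was the highest in mTEC (114 RPKM, against 8.01 RPKM in cTEC) and Myh11 the highest in cTEC (102 RPKM, against 53.8 RPKM in mTEC), Mcam the highest in skinEC (77.7 RPKM), and Des and Kcnj8 are listed at 0 in skinEC. Endothelial markers summed to 22.3, 27.8 and 0.538 RPKM, with 7, 6 and 0 of 8 at 1 RPKM or more. Pecam1 was the highest of them in cTEC, at 6.34 RPKM, Tek the highest in mTEC, at 9.40 RPKM, and Cdh5, Emcn, Cldn5 and Tie1 are listed at 0 in skinEC. Schwann and melanocyte markers summed to 3.35, 31.7 and 10.8 RPKM, with 1, 4 and 3 of 7 at 1 RPKM or more, with Pmel the highest in cTEC (1.55 RPKM), Mbp in mTEC (14.2 RPKM) and Pmel in skinEC (5.30 RPKM), and Dct and Tyr are listed at 0 in cTEC. Myeloid markers summed to 5.39, 797 and 6.90 RPKM, with 2, 7 and 3 of 8 at 1 RPKM or more, Laptm5 the highest in mTEC (460 RPKM) and cTEC (2.41 RPKM), Cd68 in skinEC (3.73 RPKM) and Fcgr3 listed at 0 in cTEC. The part of these cells in the collagen values was not tested.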

How the data were processed

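RNA-seq values of 3 libraries, 1 per population, were analysed. RPKM per gene is the authors' own value, per the file headers. CASAVA 1.8.2 and the build mm9 appear in the submitters' processing notes, without their role. The sources used here give no aligner, annotation or strand use. Values of overlapping and antisense genes are therefore uncertain. Of 5 deposited sheets, 1 was used, 3 repeat its RPKM values, whole or for some libraries (largest difference 0) and 1 holds identifiers. On several rows were 47 symbols, none of them a member, and of these rows the largest by sum was taken.

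Ratios were log2((RPKM + 1) / (RPKM + 1)) over the 16869 genes that reached 1 RPKM in any library, with a 4-fold rule, in Python 3.11.15 with pandas 2.3.3. The calling was tested on simulated data without noise, with changes larger than the rule. That test checks the code only and not the reliability of the calls. Depth came from whole-read steps: 80.5% of 302 low olfactory receptor values in mTEC were whole within 0.02 reads at the depth given, using coding lengths of GENCODE M21, and the other depths followed from the commonest ratio of low genes. A depth 2 times as large gave 74.8% whole values, so the check does not settle whether the true depth is a multiple. Low read numbers carry counting error that RPKM does not show. Transcript lengths of members came from the same later annotation, so read numbers are approximate.

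All members are named. Of partner lists, the genes named are up to 3 with the largest ratio among those at least 4-fold apart and, for most lists, the highest member. A few related genes (such as P4ha1, Itgb4 and Pxdn) were chosen after their values were seen. Of marker lists, the highest and defining ones are named. Some highest partners were left out above. They are Sparc (cTEC 186, mTEC 72.0 RPKM) and Agrn (skinEC 215 RPKM) among basement membrane components. Among anchoring partners they are Cd151 (cTEC 105 RPKM) and Itga6 (mTEC 94.0 RPKM), and among modification genes Ppib (mTEC 287 RPKM). The promoters, motifs, chain pairs and neighbour check were also chosen after values were seen, and the motif background was changed from every gene to protein-coding genes after both had been seen. The members and lists were chosen with earlier results of these data known. Alternatives were pseudocounts of 0.1 and 5 RPKM, filters, scalings, a 2-fold rule and summing of rows. From each of 2 lists, anchoring partners and Schwann and melanocyte markers, 1 gene is not reported here and enters no count or sum.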

Additional observations from a re-analysis of the deposited data

How the results depend on the processing

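Of the 52 calls of a single member in a comparison, 0 reversed under any of the 9 alternatives run. This outcome was fixed beforehand, since none of these alternatives can turn the sign of a 4-fold ratio. The alternatives show only which calls fall short of the rule. The 3 scalings (a common sum, a common sum without the 50 largest entries, and centring on the median) ended 3 of them, Col4a4 between cTEC and mTEC (-1.94 when centred), Col4a4 between cTEC and skinEC (-1.97 at a common sum) and Col9a3 between cTEC and skinEC (-1.81 and -1.99). A pseudocount of 5 RPKM ended 31, since it shrinks the ratios of low genes. For collagen genes in cTEC against mTEC, it gave 2 members higher in cTEC and 4 higher in mTEC (1.31% and 5.22% of all genes). The median log2 ratio was then -0.39, and a 2-fold rule gave 7 members higher in cTEC (10.9% of all genes). For cTEC against skinEC, a pseudocount of 0.1 RPKM gave 13 members higher in cTEC (11.8% of all genes) and a median log2 ratio of 0.99. A pseudocount of 5 RPKM gave 3 members higher in each library (2.64% of all genes in cTEC and 2.79% in skinEC). A 2-fold rule gave 16 higher in cTEC (15.4% of all genes). For mTEC against skinEC, the median log2 ratio was 1.6 with a pseudocount of 0.1 RPKM, 0.43 with 5 RPKM and 1.41 with a filter at 5 RPKM. A pseudocount of 5 RPKM gave 4 members higher in mTEC and 5 in skinEC (6.05% and 2.21% of all genes), so that mTEC no longer had the larger number. A 2-fold rule gave 9 higher in skinEC (16.7% of all genes). The other counts stayed within 1.5 times. No paired analysis was possible because each population has 1 library. At about 3 reads or fewer, 5 members (Col6a5, Col6a6, Col11a1, Col13a1 and Col28a1) were near the limit of detection in skinEC.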

Other observations

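Several genes outside the symbol rule encode proteins with collagen-like stretches, and they were chosen after their values were seen. Colq, the collagen-like tail that anchors acetylcholinesterase, was at 7.20 RPKM in cTEC, against 79.6 in mTEC and 0.0253 in skinEC. That mTEC level lies above all collagen genes of the library other than Col4a1. Emid1, which encodes a secreted protein with collagen repeats, was highest in skinEC, at 1.51, 3.06 and 19.97 RPKM. Emid2 was at 2.28, 2.55 and 0.238 RPKM and Cthrc1 at 4.08, 1.08 and 0.169 RPKM.

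The complement genes C1qa, C1qb and C1qc, whose products also hold a collagen-like stem, were at 12.0, 27.3 and 9.89 RPKM in mTEC and below 1 RPKM in cTEC and skinEC. The scavenger receptor gene Marco (12.4 RPKM in mTEC) and the adipokine gene Adipoq (8.38 RPKM in mTEC) are listed at 0 in both other libraries. The C1q genes and Marco are also known from myeloid cells, whose markers summed to 797 RPKM in mTEC and 5.39 RPKM in cTEC, and their part in these values was not tested.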
